A study of Homo sapiens with 3 samples.

Results

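The genes described here encode the 4 ID proteins (ID1, ID2, ID3 and ID4) and 5 SMAD proteins (SMAD2, SMAD3, SMAD4, SMAD6 and SMAD7), followed on 3 single-colour NimbleGen arrays of RNA from HaCaT cells, human skin keratinocytes that became immortal in culture without an added gene. They were chosen by name, and 22 of 45033 transcripts on each array carried one of these names, 7 for ID genes and 15 for SMAD genes. The Control cells were untreated, the ATRA cells received 1 µM all-trans retinoic acid, the active form of vitamin A, and the ATRA+NIC cells received ATRA and nicotinamide, the amide form of vitamin B3, whose dose the labels do not state. All 3 cultures were of the same line, were harvested after 36 h and gave 1 array each, and nicotinamide alone was not analysed here. No difference therefore has an error between cultures and no test between treatments is possible; differences are described by their size. As a model, this is a single line grown in serum-containing medium.

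ID proteins are helix-loop-helix proteins without a DNA-binding region. They bind E proteins and related transcription factors and keep them off DNA, and in keratinocytes they are known for holding back differentiation and for being among the direct targets of bone morphogenetic protein (BMP) signalling. SMADs carry signals of the transforming growth factor beta (TGF-beta) family from receptor to nucleus. SMAD2 and SMAD3 are phosphorylated by TGF-beta and activin receptors, SMAD4 is the partner shared by all branches, and SMAD6 and SMAD7 are inhibitory SMADs that are induced by the pathway and dampen it, SMAD6 mainly in the BMP branch.

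The level of a gene is the mean log2 intensity of its transcripts. Comparisons used the 12467 of 23595 genes whose level was, on at least 1 array, no lower than the overall median log2 level, 7.95. All members but ID4 did so, and those 8 did so on all 3 arrays. Median transcript intensities were 297.9 to 302.3 on the 3 arrays, and probes of random sequence lay at 18.4 to 19.6. All 10 keratinocyte markers examined passed the filter, with log2 levels of 7.62 to 15.17, while 1 of 8 fibroblast, 0 of 5 melanocyte and 0 of 5 endothelial markers did. Of 6 leukocyte markers 3 passed, and their summed intensity, over all 6, was 734 on Control, 1407 on ATRA and 638 on ATRA+NIC. The 3 that passed had log2 levels on Control, ATRA and ATRA+NIC of 7.97, 8.97 and 6.14 (CD3E), 6.90, 8.25 and 6.79 (CD79A) and 7.57, 8.44 and 8.38 (CD14). PTPRC, the pan-leukocyte gene, had log2 levels of 5.07, 7.24 and 4.21, under the filter on each array. Of the 6 leukocyte markers 5 were higher on ATRA than on Control, and the part of these markers in the results below was not tested.

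The promoters of ID1, ID2 and SMAD6 are shown because ID2 had the greatest difference of any member, and ID1 and SMAD6 were, of the members passing the intensity filter given above, those whose level on ATRA+NIC stood furthest above both other arrays. Each is the 250 bases before the start site, from RefSeq on GRCh38.p14, with capitals for every match to the letters searched.
ID1 promoter, chr20:31605039-31605288, plus strand: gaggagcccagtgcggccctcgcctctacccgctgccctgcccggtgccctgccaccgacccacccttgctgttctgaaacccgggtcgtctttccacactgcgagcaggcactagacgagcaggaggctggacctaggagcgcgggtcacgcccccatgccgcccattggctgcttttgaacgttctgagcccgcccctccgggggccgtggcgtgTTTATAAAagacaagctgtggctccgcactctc
ID2 promoter, chr2:8681806-8682055, plus strand: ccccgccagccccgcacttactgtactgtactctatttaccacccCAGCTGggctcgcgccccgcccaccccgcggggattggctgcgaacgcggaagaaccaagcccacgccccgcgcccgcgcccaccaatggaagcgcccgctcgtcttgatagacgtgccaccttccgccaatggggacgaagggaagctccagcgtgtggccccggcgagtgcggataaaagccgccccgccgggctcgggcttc
SMAD6 promoter, chr15:66701986-66702235, plus strand: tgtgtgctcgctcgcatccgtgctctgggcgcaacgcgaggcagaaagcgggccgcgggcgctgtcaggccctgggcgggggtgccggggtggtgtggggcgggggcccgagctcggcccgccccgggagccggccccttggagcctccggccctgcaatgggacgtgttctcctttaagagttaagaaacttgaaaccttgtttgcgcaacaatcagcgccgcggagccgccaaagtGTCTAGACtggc

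Capitals mark TTTATAAA in ID1, which holds a match to the TATA box letters TATAAA on each strand, CAGCTG in ID2, an E-box (CANNTG, the element bound by E proteins), and GTCTAGAC in SMAD6, the palindrome bound by SMADs in laboratory selection. Both strands were searched over each whole 300-base window of the RefSeq table, which reaches 50 bases past the start site. The SMAD palindrome stood in 0.202% of 35116 promoter windows, and SMAD6 was the only member with it, 12 bases before its start site. The GC-rich letters GGCGCC, of the kind described in BMP-responsive elements, stood in 19.2% of windows and in 4 of the 16 windows of members, which belong to SMAD2, SMAD3 and SMAD4. The letters CAGACA stood in 16.9% of windows and in 1 window of SMAD3, TATAAA in 11.5% and in windows of ID1, ID4 and SMAD7, CANNTG in 68.7% and in 9 member windows, the EGR letters GCGGGGGCG in 5.07% and in ID4, and the cyclic AMP element TGACGTCA in 1.85% and in no member. SMAD6 is itself among the 16 genes with the SMAD palindrome that passed the filter. None of the 16 was at least 2-fold different between ATRA+NIC and ATRA, where 1.35% of all genes were higher and 3.74% lower. SMAD6 ranked number 1 from the top there, and the median of the 16 was −0.01, against 0.05 over all genes. Between ATRA and Control 2 of the 16 were at least 2-fold higher and none lower, where 3.83% and 2.06% of all genes were. SMAD6 ranked number 12 in that comparison, with a median of −0.03 against −0.04. Between ATRA+NIC and Control 1 was higher and none lower, where 1.03% and 0.971% of all genes were. SMAD6 ranked number 2 there, with a median of −0.07 against −0.01. Its promoter was shown because of its level on ATRA+NIC, so its ranks in the comparisons with that array reuse this value.

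ID2 was the member that differed most. Its transcript NM_002166 had an intensity of 1042 on Control, 5726 on ATRA and 1675 on ATRA+NIC, and its transcript BC030639 had 461, 2656 and 810. Both were highest on the ATRA array and lowest on the Control array. At the gene level ID2 was 5.63-fold higher on ATRA than on Control (log2 difference 2.49), 3.35-fold lower on ATRA+NIC than on ATRA (−1.74), and 1.68-fold higher on ATRA+NIC than on Control (0.75). The first 2 comparisons share the ATRA array, so a high value there enters both. Its transcripts had differences of 2.46 and 2.53 in the first comparison, an SD of 0.05, whereas transcripts of a gene had a pooled SD of 0.31 over 7074 genes, a technical scatter that does not measure cultures. In the hg18 annotation of the files ID2 spans bases 8739563 to 8742034 of chromosome 2.

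The files also list ID2B, which RefSeq calls a pseudogene and which is a processed copy of ID2, on chromosome 3 at 62084059 to 62085432. Its 3 transcripts had intensities of 317 to 902 on Control, 1757 to 5556 on ATRA and 478 to 1381 on ATRA+NIC, and at the gene level it was 5.13-fold higher and then 3.58-fold lower. Signals of ID2 and of its copy cannot be told apart here, so the 2.49 of ID2 and the 2.36 of ID2B are not independent readings.

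ID1 was highest on the ATRA+NIC array. Its transcripts NM_002165 and NM_181353, annotated to the same bases 29656752 to 29657974 of chromosome 20, had intensities of 6902 and 6653 on Control, 8786 and 8111 on ATRA, and 13770 and 14798 on ATRA+NIC. Both transcripts rank the arrays in the same order. The gene was 1.25-fold higher on ATRA than on Control (0.32), 1.69-fold higher on ATRA+NIC than on ATRA (0.76) and 2.11-fold higher on ATRA+NIC than on Control (1.07). The first of these differences was about the size of the pooled transcript SD of 0.31.

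ID3, a close relative with overlapping functions, differed little. BC003107 had intensities of 6274, 5262 and 7164 on Control, ATRA and ATRA+NIC, and NM_002167 had 4766, 4756 and 4899. The gene-level differences were −0.13 for ATRA against Control, 0.24 for ATRA+NIC against ATRA and 0.12 for ATRA+NIC against Control, each within the transcript SD. Its order of arrays, with ATRA lowest, is therefore not separated by more than that scatter. ID4, which in several tissues acts as a modulator of the other ID proteins, was read by 1 transcript at 15.0, 12.7 and 29.6. All of these lay under 50, the lower bound of the value table the authors deposited, and beside the random probes at 18.4 to 19.6, so no fold is given.

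**Figure D1:**
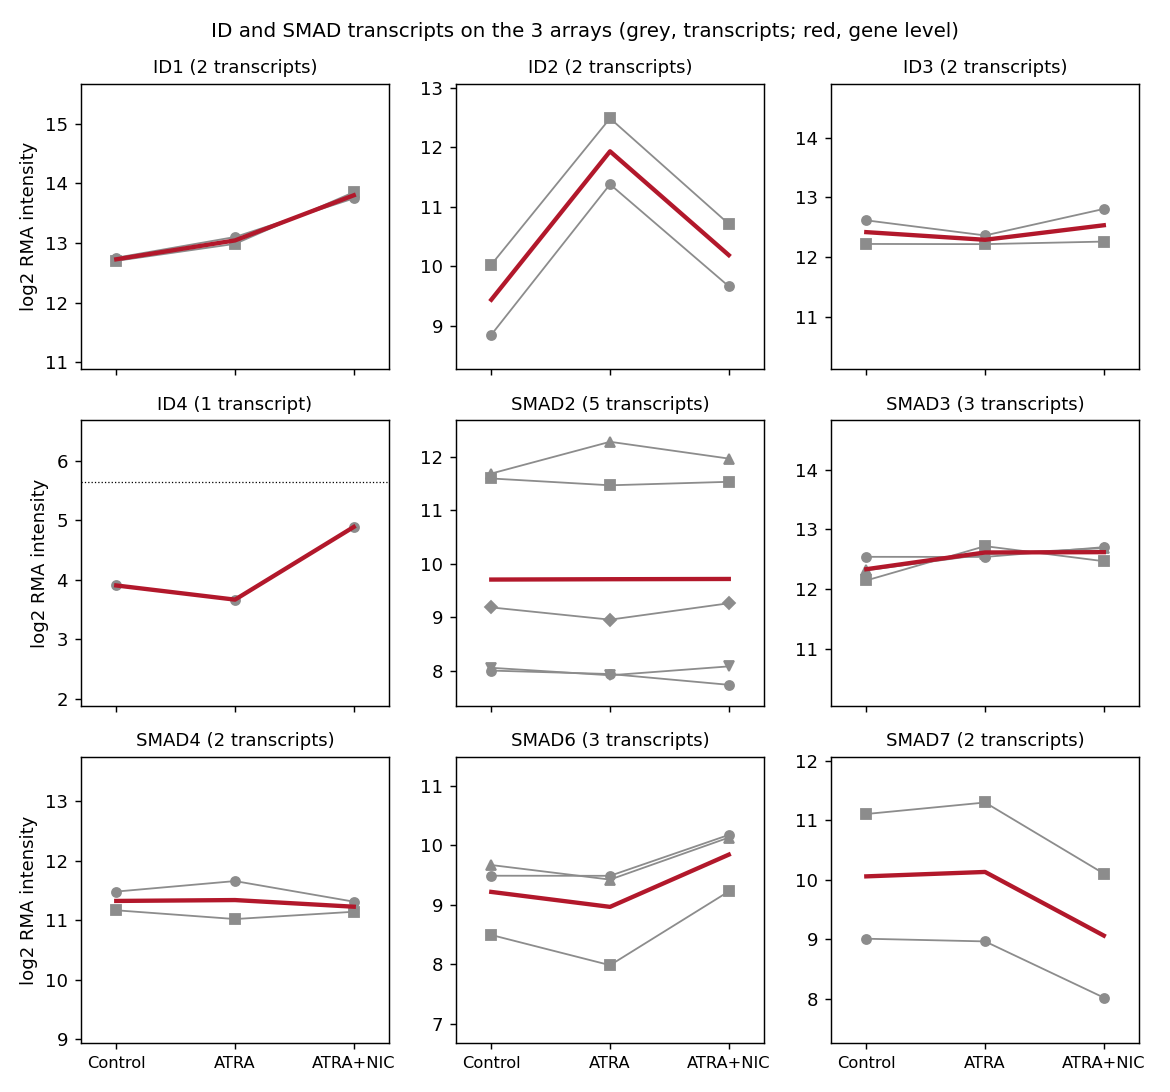
Log2 RMA intensity (vertical axis) of each transcript (grey symbols and lines) and the gene level (red line) of the 9 members on the 3 arrays named along the horizontal axis, with the range of the axis set per gene; the dotted line, within range for ID4 only, is an intensity of 50. ID2 peaks at 11.93 on the ATRA array, ID1 is highest on ATRA+NIC at 13.80, SMAD7 is lowest there at 9.06, and ID4 stays under 50.

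The inhibitory SMADs went in opposite directions on the ATRA+NIC array. SMAD7, which recruits ubiquitin ligases to TGF-beta receptors and blocks their signal, had intensities of 2204, 2519 and 1101 for NM_005904 and of 516, 500.0 and 260 for BC074818. Both transcripts were lowest on ATRA+NIC, while Control and ATRA differed in sign between them (0.19 and −0.05). At the gene level SMAD7 was 1.05-fold higher on ATRA than on Control (0.07), 2.10-fold lower on ATRA+NIC than on ATRA (−1.07) and 1.99-fold lower than on Control (−0.99). It spans bases 44700220 to 44731079 of chromosome 18 in hg18.

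SMAD6, which acts on BMP receptors and on SMAD4 complex formation, was highest on ATRA+NIC. Its intensities on Control, ATRA and ATRA+NIC were 815, 688 and 1121 for NM_005585, 719, 718 and 1156 for BC012986, and 361, 254 and 599 for BC052569. All 3 transcripts were highest on ATRA+NIC and none was higher on ATRA than on Control. The gene was 1.19-fold lower on ATRA than on Control (−0.25), 1.84-fold higher on ATRA+NIC than on ATRA (0.88, with transcripts at 0.69 to 1.24) and 1.54-fold higher than on Control (0.63). The first of these lay within the transcript SD of 0.31. SMAD6 spans bases 64781727 to 64861380 of chromosome 15 in hg18.

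Of the signal-carrying SMADs, SMAD2 and SMAD4 differed by at most 0.11 between arrays and SMAD3 by up to 0.29. SMAD4 had intensities of 2856, 3228 and 2540 for NM_005359 and 2297, 2075 and 2258 for U44378, with gene differences of 0.01, −0.11 and −0.10 in the 3 comparisons. SMAD3 had intensities of 5089, 6131 and 6590 for NM_005902, 4523, 6743 and 5659 for BC050743, and 5954, 5947 and 6664 for BC000414. Against Control its gene differences were 0.28 on ATRA and 0.29 on ATRA+NIC. Its transcripts ranged from −0.002 to 0.58 in the first of these, and in the second all 3 were higher, by 0.16 to 0.37, beside a pooled transcript SD of 0.24. SMAD2 had gene levels of 9.71, 9.71 and 9.72, the smallest range of any member.

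The 5 transcripts of SMAD2 did not move alike. BC025699 had intensities of 3302, 4984 and 4009, a difference of 0.59 between ATRA and Control, while the other 4 lay between −0.23 and −0.06 in that comparison. BC014840, with nearly the same annotated ends on chromosome 18, had 3098, 2836 and 2967. AY134745 and XM_930034 lie outside bases 43618434 to 43711221, the hg18 interval of NM_001003652, and had 214 to 257 and 242 to 271. Over the 3 transcripts that overlap that interval, an alternative chosen after the data had been seen, SMAD2 differed by 0.08, 0.02 and 0.10. The level of this gene thus rests on a mean of transcripts that differ in brightness and direction.

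At the 2-fold mark, 1 of the 8 members passing the filter was higher on ATRA than on Control, ID2, and none was lower, where 3.83% of all 12467 genes were higher and 2.06% lower. ID2 ranked number 60 from the top of all genes, and the next member, ID1, number 2425. Between ATRA+NIC and ATRA 2 of 8 members were at least 2-fold lower, ID2 and SMAD7, and none higher, where 3.74% of genes were lower and 1.35% higher. SMAD6 ranked number 282 from the top and ID1 number 473, and SMAD7 number 406 from the bottom. Between ATRA+NIC and Control ID1 alone passed 2-fold, where 1.03% of genes were higher and 0.971% lower. ID1 at 1.07 stood just inside the mark and SMAD7 at −0.99 just outside it, as numbers 108 from the top and 123 from the bottom. With the brightest transcript of each gene in place of the mean, SMAD7 was just past 2-fold and ID1 just short of it. With an offset of 100 before log2 the ATRA+NIC against ATRA count was 1, since SMAD7 moved to −0.93. The median over the 8 members was 0.04, 0.005 and 0.20 in the 3 comparisons, beside −0.04, 0.05 and −0.01 over all genes.

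**Figure D2:**
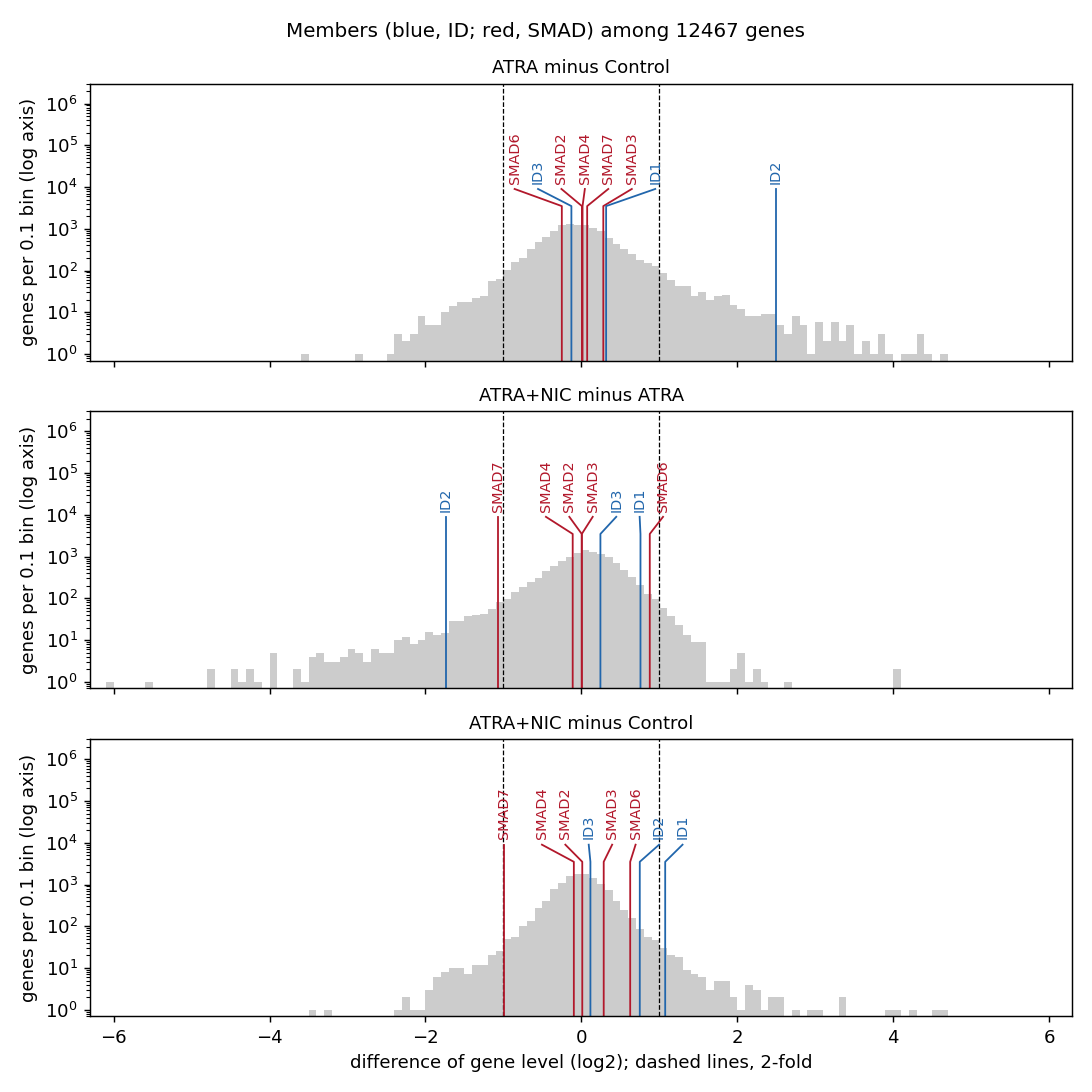
Histograms of the log2 difference (horizontal axis) of 12467 genes in 3 comparisons, with the number of genes per bin of 0.1 on a log axis; coloured lines mark the 8 members that passed the filter and dashed lines 2-fold. ID2 lies at 2.49 in the upper panel and −1.74 in the middle one, and in the lower panel ID1 (1.07) and SMAD7 (−0.99) lie at the dashed lines.

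The rest of the pathway was read through 9 lists with 89 genes, of which 62 passed the filter. The lists were chosen with earlier results of these data known, so their counts are not independent of them. Among other receptor-regulated SMADs, which serve BMP receptors, SMAD1 had log2 levels of 8.76, 9.32 and 8.74 and SMAD5 9.47, 9.01 and 9.46. They differed in opposite directions on the ATRA array, by 0.56 and −0.47, and by −0.02 and −0.01 between ATRA+NIC and Control. SMAD9 lay between 4.66 and 4.95, near background. None of 3 TGF-beta receptor genes passing the filter reached 2-fold in any comparison, with TGFBR1, the type I receptor, at −0.73 and TGFBR2, the type II receptor, at −0.36 for ATRA against Control. Of 4 BMP and activin receptor genes BMPR2, the type II BMP receptor, was 2.02-fold lower on ATRA than on Control. With dim transcript values set to 50 it was 1.48-fold lower. Its levels were 8.41, 7.40 and 8.18, so it was under the filter level on ATRA. Among the 3 genes of this list at or above that level on all 3 arrays, 0 were 2-fold lower on ATRA. Of all genes, 3.83% were higher and 2.06% lower on ATRA than on Control. The shares were 1.35% and 3.74% between ATRA+NIC and ATRA, and 1.03% and 0.971% between ATRA+NIC and Control. BMPR1A, a type I BMP receptor named after its values had been seen, had levels of 10.94, 9.99 and 10.39, a difference of −0.95 on ATRA.

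Ligands and extracellular inhibitors held larger single differences than receptors. BMP2, a BMP ligand, had log2 levels of 8.50, 9.71 and 7.60, and was 2.31-fold higher on ATRA than on Control and 4.30-fold lower on ATRA+NIC than on ATRA. It reached the filter only on the Control and ATRA arrays, where it was higher. GDF15, a stress-induced distant member of the family, had 8.75, 13.04 and 9.13. INHBA, which encodes the activin A subunit, had 11.55, 11.55 and 9.50 and was 4.16-fold lower on ATRA+NIC than on Control. Of 6 ligand genes passing the filter, BMP2 and GDF15 were past 2-fold as higher on ATRA, and these and INHBA as lower on ATRA+NIC than on ATRA. Both comparisons share the ATRA array, so a high value there enters both. Among the 4 ligand genes at or above the filter level on all 3 arrays, 1 was higher in the first and 2 were lower in the second. The shares of such genes were 2.56% and 2.55%. BAMBI, a decoy receptor without a kinase, was 2.76-fold higher on ATRA and 3.02-fold lower on ATRA+NIC than on ATRA, with levels of 9.06, 10.53 and 8.93. FST, the activin-binding follistatin, had 10.09, 9.97 and 8.85 and was 2.36-fold lower on ATRA+NIC than on Control. These were the only 2 of 5 inhibitor genes passing the filter that reached 2-fold. Of all genes, 3.83% were at least 2-fold higher on ATRA than on Control and 3.74% lower on ATRA+NIC than on ATRA. The share lower on ATRA+NIC than on Control was 0.971%.

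Of 16 SMAD cofactors, corepressors and ubiquitin ligases 1 was at least 2-fold higher on ATRA, the corepressor TGIF1 (2.09-fold, levels 10.27, 11.34 and 10.35). Another, NEDD4L, a ubiquitin ligase of SMADs and receptors, was 2.02-fold lower on ATRA+NIC than on ATRA (10.51, 11.32 and 10.31). In the comparison of ATRA+NIC with Control none of the 16 reached 2-fold. Of all genes, 3.83% were higher in the first of these comparisons and 3.74% lower in the second. In the third, 1.03% were higher and 0.971% lower.

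Genes known as targets of TGF-beta and SMADs had the lowest median of the 9 lists between ATRA+NIC and Control. Of 12 in the filtered set, 8 were at least 2-fold lower on ATRA+NIC than on Control and none was higher. Of all genes, 0.971% were lower and 1.03% higher. The list median was −1.21 beside −0.01 over all genes. This list was chosen with earlier results of these data known, so neither its count nor its median is independent of them. The 8 lower genes were THBS1 (4.32-fold), a matrix glycoprotein that activates latent TGF-beta, HMGA2 (3.58-fold), a chromatin protein, FN1 (2.96-fold), fibronectin, SNAI2 (2.69-fold), a transcriptional repressor, CCN1 (2.48-fold) and CCN2 (2.41-fold), matricellular proteins, ITGB6 (2.22-fold), an integrin subunit, and LTBP2 (2.07-fold), a matrix protein. HMGA2 reached the filter on the Control array only, with log2 levels of 8.46, 7.26 and 6.62, the array where it was highest. CCN2 reached it on the ATRA array only, so its levels on Control and ATRA+NIC, 7.63 and 6.36, both lay under the filter. Among the 8 listed genes at or above the filter level on all 3 arrays, 5 were lower, where 0.584% of 11135 such genes were. Of the 12, 2 went the other way on ATRA+NIC against Control, CDKN2B by 0.42 and JUNB by 0.32, both short of 2-fold. Many genes of this list are also known to answer to other signals.

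On the ATRA array the same list was split. SNAI1, a repressor of epithelial genes, was 10.4-fold higher than on Control, CCN2 6.32-fold and JUNB, an AP-1 gene, 2.29-fold higher. SNAI1 and CCN2 reached the filter on the ATRA array only, with log2 levels of 7.73, 11.11 and 7.20 and of 7.63, 10.29 and 6.36, so that they had to differ to enter. FN1 (2.81-fold), HMGA2 (2.29-fold), ITGB6 (2.25-fold), LTBP2 (2.24-fold) and THBS1 (2.11-fold) were lower on ATRA than on Control, though LTBP2 (9.08, 7.91 and 8.03) was under the filter level on ATRA and HMGA2 on both treated arrays. Among the 8 at or above it on all 3 arrays, 1 was higher and 3 were lower, where 2.56% and 1.18% of such genes were. FN1 had levels of 13.10, 11.61 and 11.54 and ITGB6 10.89, 9.72 and 9.74, so the treated arrays differed from each other by −0.07 and 0.02. SNAI2, with 12.58, 12.22 and 11.15, was lowest on ATRA+NIC, as SMAD7 was. Between ATRA+NIC and ATRA 5 of the 12 were at least 2-fold lower and none was higher, where 3.74% and 1.35% of all genes were. CCN2 was 15.2-fold, SNAI1 15.0-fold and CCN1 3.80-fold lower. Among the 8 at or above the filter level on all 3 arrays, which leave out CCN2 and SNAI1, 3 were lower and none was higher. The shares of such genes were 2.55% and 0.835%.

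**Figure D3:**
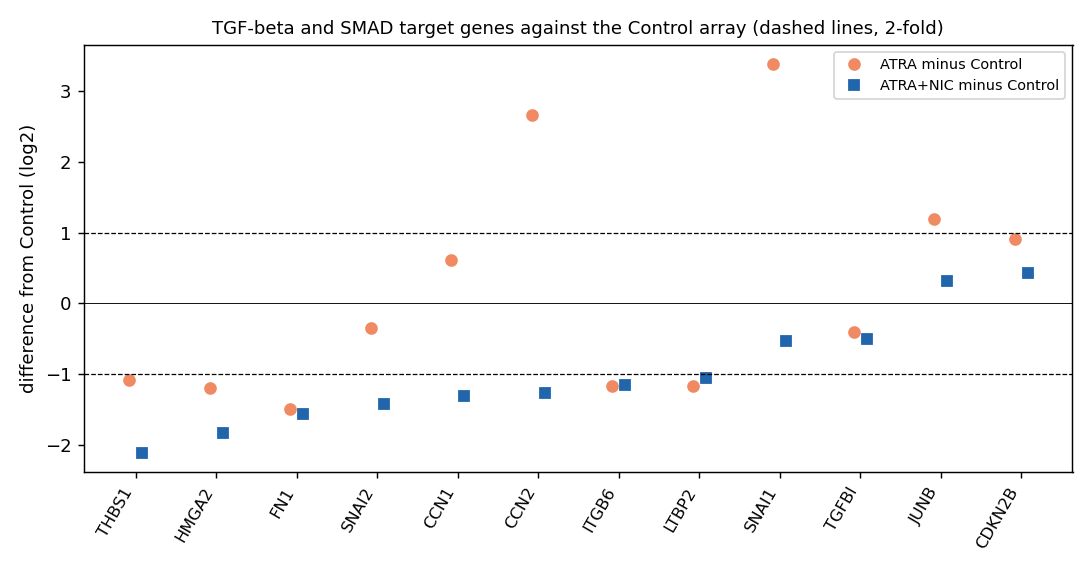
Log2 difference from the Control array (vertical axis) of the 12 TGF-beta and SMAD target genes that passed the filter, on the ATRA array (circles) and the ATRA+NIC array (squares), 1 array each; dashed lines mark 2-fold. Of the squares 8 lie below the lower dashed line, from −2.11 for THBS1 to −1.05 for LTBP2, while the circles run from −1.49 for FN1 to 3.38 for SNAI1. The genes were listed with earlier results of these data known.

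Genes of E proteins, which ID proteins bind, and of other helix-loop-helix factors were read next. The E protein genes TCF3, TCF4 and TCF12, named after their values had been seen, differed from Control by −0.34, −0.57 and 0.25 on ATRA and by −0.10, −0.52 and −0.53 on ATRA+NIC. None of them reached 2-fold. The list had 11 genes of E proteins and other helix-loop-helix factors that passed the filter, not all of them partners of ID proteins. MXD1, a MAX-binding repressor that opposes MYC, was 4.90-fold higher on ATRA and 8.72-fold lower on ATRA+NIC than on ATRA, with levels of 8.61, 10.90 and 7.78. On ATRA+NIC MXD1 was under the filter level, so it passed only on the arrays where it was higher. BHLHE41, a clock-related repressor, was 2.11-fold higher on ATRA and 2.94-fold higher on ATRA+NIC than on Control (8.46, 9.54 and 10.02). HEY1, a Notch target, was 2.91-fold, BHLHE40 2.78-fold and MYC 2.29-fold lower on ATRA+NIC than on ATRA. Among 3 CDK inhibitor genes passing the filter, CDKN1A, which arrests the cell cycle, was 3.28-fold higher on ATRA (12.08, 13.80 and 11.67). Of all 62 listed genes, 10 were past 2-fold as higher and 6 as lower on ATRA than on Control (3.83% and 2.06% of all genes), 0 and 16 on ATRA+NIC than on ATRA (1.35% and 3.74%), and 1 and 10 on ATRA+NIC than on Control (1.03% and 0.971%). These counts include genes, such as SNAI1, CCN2 and HMGA2, that reached the filter only on the array where they were high. The comparisons of ATRA with Control and of ATRA+NIC with ATRA share the ATRA array, so their counts are not separate readings. Of the 47 at or above the filter level on all 3 arrays, 6 were higher and 3 lower in the first comparison (2.56% and 1.18% of such genes), 0 and 12 in the second (0.835% and 2.55%), and 1 and 7 in the third (0.566% and 0.584%).

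**Figure D4:**
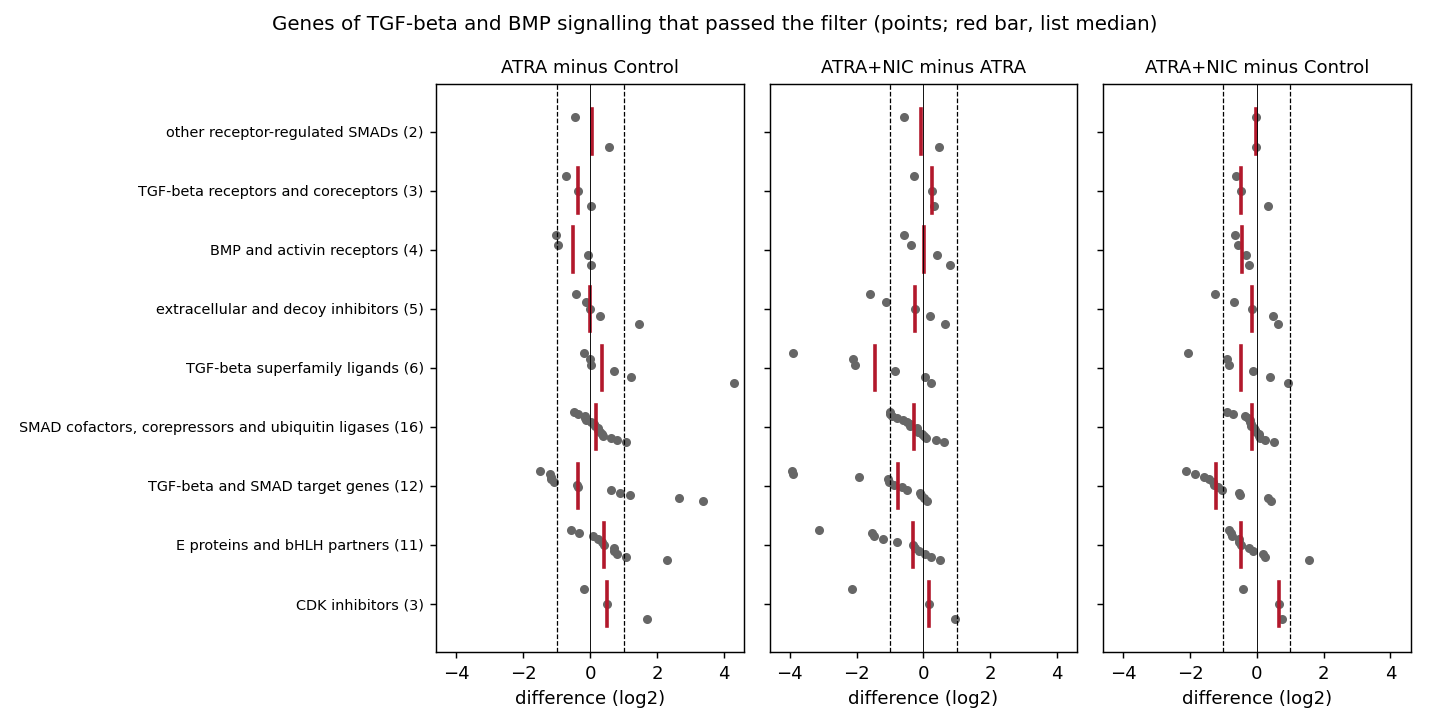
Log2 difference (horizontal axis) of each gene that passed the filter (grey points) in 9 lists, with the number of genes in parentheses, in 3 comparisons. The lists cover TGF-beta and BMP signalling, E proteins and other helix-loop-helix factors, and CDK inhibitors. Red bars are list medians and dashed lines 2-fold. The target gene list has a median of −1.21 between ATRA+NIC and Control, and the receptor lists stay within 2-fold there.

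Likeness of pattern was measured as the distance between pairs of differences, ATRA against Control and ATRA+NIC against ATRA, over 6867 genes with at least 2 transcripts on these 3 arrays. Among the nearest to ID2 were its own copy ID2B (distance 0.16) and RGS16, a regulator of G protein signalling (0.30). RGS16 had levels of 7.11, 9.52 and 7.49 and so passed the filter only on the ATRA array. Nearest to ID1 were TM7SF2, a sterol reductase gene (0.11, levels 8.96, 9.17 and 9.91), SLC25A47 (0.11) and ALDH3A1, an aldehyde dehydrogenase gene (0.17). SLC25A47 had levels of 7.17, 7.42 and 8.09 and so passed the filter only on the ATRA+NIC array, where it was highest. Among the nearest to SMAD7 was CISH, a cytokine signalling inhibitor gene (0.03, levels 8.00, 8.05 and 6.96). CISH narrowly passed the filter on the Control and ATRA arrays only, where it was higher. Another was HS3ST2, a heparan sulfate sulfotransferase gene (0.08, levels 9.07, 9.07 and 7.97). Within 0.25 of each pattern lay 2 genes for ID2, 11 for ID1 and 15 for SMAD7.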

How the data were processed

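Per the file headers and labels, the authors deposited RMA gene calls, intensities on a linear scale from background-corrected, normalized and summarised probes (3 for each member transcript), annotated on human build hg18; no software or version is given there. Depth does not apply, and the number of arrays limits the precision. Intensities were taken to log2 in Python 3.11.15 with pandas 2.3.3 and not rescaled. Transcripts were joined by Entrez number to current RefSeq symbols, and gene levels were the mean over transcripts. A BMPR2 transcript under 50 was set to 50 for its second fold. Named genes were all members, listed genes at least 2-fold different (otherwise the 2 of a list with the greatest difference) and 3 genes of like pattern for ID1, ID2 and SMAD7; some genes under this rule are not reported here, and a target gene among them was left out of its list and counts. Alternatives were the brightest or median transcript, offsets of 16 and 100, a floor at 50, no filter, a 75th percentile filter, median centring, quantile normalization and the authors' value table of the same intensities, deposited for 31275 transcripts. Members and lists were chosen with earlier results of these data known.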

Additional observations from a re-analysis of the deposited data

How the results depend on the processing

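No paired analysis was possible because each treatment has 1 array. Under the 10 alternatives every member that passed 2-fold kept its direction: ID2 ranged from 2.32 to 2.50 for ATRA against Control and from −1.77 to −1.66 for ATRA+NIC against ATRA, SMAD7 from −1.19 to −0.93 in the latter, and ID1 from 1.00 to 1.09 for ATRA+NIC against Control. Members at least 2-fold different between ATRA+NIC and ATRA numbered 1 rather than 2 with an offset of 100 and with the 75th percentile filter, which leaves 5 members and drops SMAD7. SMAD2 changed sign with its brightest transcript (−0.31) for ATRA+NIC against ATRA and stood at 0.31 with its median transcript. Genes at least 2-fold different numbered 481, 1756, 308 and 445 for ATRA against Control with an offset of 100, no filter, the 75th percentile filter and the value table, beside 734; 408, 1701, 269 and 399 for ATRA+NIC against ATRA, beside 634; and 143, 1039, 92 and 147 for ATRA+NIC against Control, beside 249. Fewer or more genes were tested under the last 3 settings. TGF-beta and SMAD target genes at least 2-fold lower on ATRA than on Control numbered 3 of 12 rather than 5 of 12 with the offset of 100. They numbered 3 of 8 with the 75th percentile filter and 3 of 9 with the value table. Those lower on ATRA+NIC than on Control numbered 5 of 8 rather than 8 of 12 with the 75th percentile filter. For this gene list the alternatives were added after the data had been seen.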
